A study of Mus musculus with 14 samples.

Results

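The Schlafen genes Slfn1, Slfn2, Slfn3, Slfn4, Slfn5, Slfn8 and Slfn9 are described here in cultured mouse CD8 T cells. They are the 7 of 55486 genes in the count table that carry these symbols. The study measured polyadenylated RNA in 14 libraries to ask what loss or inhibition of the histone methyltransferase DOT1L does to the transcriptome of CD8 T cells. Isolated CD8 T cells were activated on day 0 with antibodies to CD3 and CD28 and were counted on day 8. All 4 groups were heterozygous for OT-I, a transgenic T cell receptor. The KO-labelled group (3 libraries) was homozygous for floxed Dot1l and heterozygous for CreERT2, a Cre recombinase that acts in the presence of tamoxifen. The WT-labelled group (3 libraries) was heterozygous for CreERT2 with wild-type Dot1l, and both of these groups received 10 nM 4-hydroxytamoxifen on day 0. The EPZ group (4 libraries) and the DMSO group (4 libraries) had neither Cre nor floxed Dot1l. They received the DOT1L inhibitor EPZ-5676 or 0.1% DMSO every 2 days. Its dose is labelled 10 mM in the treatment field but 10 uM in the library names, and the files do not show which is right. The sources used here give neither the promoter that drives Cre nor the age of the mice.

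Schlafen proteins are found in mammals, and their genes lie together in a cluster that has expanded in rodents. They share an N-terminal core domain that is related to RNA-binding and RNA-cleaving folds. The short forms Slfn1 and Slfn2 consist mainly of this core, the intermediate forms Slfn3 and Slfn4 carry an additional linker domain, and the long forms Slfn5, Slfn8 and Slfn9 also carry a helicase-like C-terminal region. In mouse T cells the family was first described through the growth arrest of thymocytes that express Slfn1, and Slfn2 is known as a gene that T cells need to stay quiescent and to survive activation, in part by protecting tRNA from cleavage. Several members are induced by type I interferon.

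In the mm10 genome build the cluster lies on chromosome 11 and spans 264 kb from the start of Slfn5 to the end of Slfn3. Its order is Slfn5 (ENSMUSG00000054404, chr11:82951349-82964840, plus strand), Slfn9 (ENSMUSG00000069793, chr11:82978390-82991830, minus), Slfn8 (ENSMUSG00000035208, chr11:83002158-83020810, minus), the pseudogene Slfn10-ps (chr11:83028130-83040042, minus), Slfn2 (ENSMUSG00000072620, chr11:83065112-83070678, plus), Slfn1 (ENSMUSG00000078763, chr11:83116849-83122670, plus), Slfn4 (ENSMUSG00000000204, chr11:83175186-83190216, plus) and Slfn3 (ENSMUSG00000018986, chr11:83191330-83215154, plus). The merged exons measured 1664 bases for Slfn2 and 1864 bases for Slfn1. They measured 3411 bases for Slfn3 and 3964 bases for Slfn4, and 4091 bases for Slfn8, 5965 bases for Slfn9 and 6326 bases for Slfn5. The exon lengths therefore followed the grouping into short, intermediate and long forms.

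The promoter sequences are shown because the short and intermediate forms on the one hand and the long forms on the other held different motifs. All 7 members had an entry in the RefSeq promoter table (GRCm38.p6), and the 250 bases before the RefSeq start were searched on both strands. The letters were chosen after the promoters had been looked at, so the matches are a description. An ETS-type motif (CAGGAAGT, or ACTTCCTG on the other strand) was present in 4 members, Slfn1, Slfn2, Slfn3 and Slfn4, and in 2.73% of 27025 promoters. The core of an interferon-stimulated response element (GAAA and GAAA with any 2 bases between, or TTTC and TTTC with any 2 bases between on the other strand) was present in the other members, Slfn5, Slfn8 and Slfn9, and in 3.04% of promoters. No member held both motifs, so no matches overlapped. A gamma-activated site (TTCNNNGAA, the same on both strands) was found in 0 of 7 members and in 7.18% of promoters. In the sequences below, capitals mark the ETS-type match in Slfn1 (chr11:83116570-83116819, plus), Slfn2 (chr11:83064862-83065111, plus) and Slfn3 (chr11:83191080-83191329, plus). They mark the interferon element core in Slfn5 (chr11:82951852-82951984, plus), Slfn8 (chr11:83020811-83021060, minus) and Slfn9 (chr11:82991831-82992080, minus).
Slfn1: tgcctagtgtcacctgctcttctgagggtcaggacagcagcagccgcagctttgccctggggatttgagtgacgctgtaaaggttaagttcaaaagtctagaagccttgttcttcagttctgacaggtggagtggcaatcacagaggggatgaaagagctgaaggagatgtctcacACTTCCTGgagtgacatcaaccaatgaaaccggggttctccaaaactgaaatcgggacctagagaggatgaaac
Slfn2: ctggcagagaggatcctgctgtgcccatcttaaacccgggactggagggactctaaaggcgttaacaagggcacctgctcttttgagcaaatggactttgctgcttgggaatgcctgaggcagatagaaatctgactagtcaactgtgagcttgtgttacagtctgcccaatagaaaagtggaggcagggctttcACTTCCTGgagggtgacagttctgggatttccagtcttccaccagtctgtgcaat
Slfn3: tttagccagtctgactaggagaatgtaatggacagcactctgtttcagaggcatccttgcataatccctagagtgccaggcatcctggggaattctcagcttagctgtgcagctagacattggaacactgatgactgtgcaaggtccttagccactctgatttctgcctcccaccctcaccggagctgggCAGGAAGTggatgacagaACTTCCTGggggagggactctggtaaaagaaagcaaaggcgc
Slfn5: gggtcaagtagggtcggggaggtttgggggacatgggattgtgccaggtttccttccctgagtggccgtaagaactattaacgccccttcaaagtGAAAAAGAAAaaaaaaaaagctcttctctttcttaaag
Slfn8: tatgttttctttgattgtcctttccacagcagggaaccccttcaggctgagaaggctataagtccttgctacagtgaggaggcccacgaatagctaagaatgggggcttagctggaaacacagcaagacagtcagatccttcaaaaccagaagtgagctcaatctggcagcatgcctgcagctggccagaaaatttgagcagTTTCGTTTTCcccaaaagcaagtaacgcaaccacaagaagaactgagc
Slfn9: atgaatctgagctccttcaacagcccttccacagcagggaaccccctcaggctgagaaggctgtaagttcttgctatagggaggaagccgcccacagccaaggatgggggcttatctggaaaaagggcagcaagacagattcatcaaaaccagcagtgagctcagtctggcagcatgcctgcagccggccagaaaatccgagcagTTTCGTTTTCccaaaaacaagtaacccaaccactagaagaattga
Slfn3 held the ETS-type motif once on each strand, 60 to 53 and 42 to 35 bases before its start. The match lay 74 to 67 bases before the start in Slfn1 and 55 to 48 bases before it in Slfn2. Slfn8 and Slfn9, which are neighbours in the cluster, shared the letters TTTCGTTTTC at 48 to 39 and at 45 to 36 bases before their starts, and their promoters aligned with 81.9% identity (208 of 254 columns). The Slfn5 match, in a run rich in A, lay farther away, at 155 to 146 bases. The stretch of Slfn5 ends where an annotated exon of another of its transcripts begins, after 133 bases, and its RefSeq start lies inside the gene span given above.

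Facts that bear on every value come first. Library totals ran from 5643724 to 20586093 counts, and the 6 members other than Slfn4 had at least 52 counts in each library. Dot1l, the targeted gene, had 218, 201 and 190 CPM (counts scaled to a common library size) in the KO-labelled libraries and 135, 140 and 133 CPM in the WT-labelled libraries. A count over the whole gene also takes in exons outside the floxed part, so it does not check the deletion, and here it was higher in the libraries labelled KO. Xist and the Y-linked Ddx3y went against the labelled sex in 4 of the 6 KO-labelled and WT-labelled libraries (KO 2, KO 3, WT 2 and WT 3) and in 0 of the 8 EPZ and DMSO libraries. KO 2 (labelled female) and KO 3 (labelled male) each showed the other's labelled sex, as did WT 2 (male) and WT 3 (female). Each group thus held its labelled mix of sexes, and the reason for the mismatch was not tested. Results of the first pair of groups are therefore given for the libraries as labelled, and again with KO 1 and WT 1 alone, where each lone library is assumed to vary like the EPZ and DMSO groups. The KO-labelled and WT-labelled libraries come from different animals by their library names, while the EPZ and DMSO libraries come from the same 4 animals, named WT1 to WT4.

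Per kilobase of merged exons, the short forms held most of the Schlafen RNA in each group. Slfn2 stood at 26.8 ± 1.83 CPM per kb in KO-labelled, 41.8 ± 2.67 in WT-labelled, 99.8 ± 20.3 in EPZ and 112 ± 20.5 in DMSO cells (SD, n = 3, 3, 4 and 4). Slfn1 came next, at 13.9 ± 1.98 CPM per kb in KO-labelled, 15.4 ± 2.52 in WT-labelled, 35.7 ± 3.48 in EPZ and 34.0 ± 3.12 in DMSO cells. Slfn8 followed with group means of 6.74 to 7.50 CPM per kb. Slfn3, Slfn5 and Slfn9 all lay between 1.51 and 3.92 CPM per kb in their group means, and their order changed from group to group. Slfn5 led these 3 genes in KO-labelled cells (3.92 ± 0.391 CPM per kb) and was the lowest of them in WT-labelled (1.97 ± 0.188), EPZ (2.91 ± 0.560) and DMSO cells (1.51 ± 0.243). Slfn4 was close to 0 throughout.

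Slfn2 made up 46.1% ± 0.255 of the summed Schlafen level per kb in KO-labelled cells, 58.2% ± 1.30 in WT-labelled cells, 64.9% ± 4.19 in EPZ cells and 69.2% ± 3.28 in DMSO cells. The KO-labelled range, 45.8% to 46.3%, lay below the range of each other group. Slfn5 made up 6.78% ± 0.903 of the sum in KO-labelled cells and 2.75% ± 0.196 in WT-labelled cells, and 1.95% ± 0.505 in EPZ cells and 0.959% ± 0.227 in DMSO cells. The sum itself was 58.1 ± 3.96 CPM per kb in KO-labelled and 71.7 ± 3.46 in WT-labelled cells, against 153 ± 22.9 in EPZ and 161 ± 22.8 in DMSO cells.

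**Figure D1:**
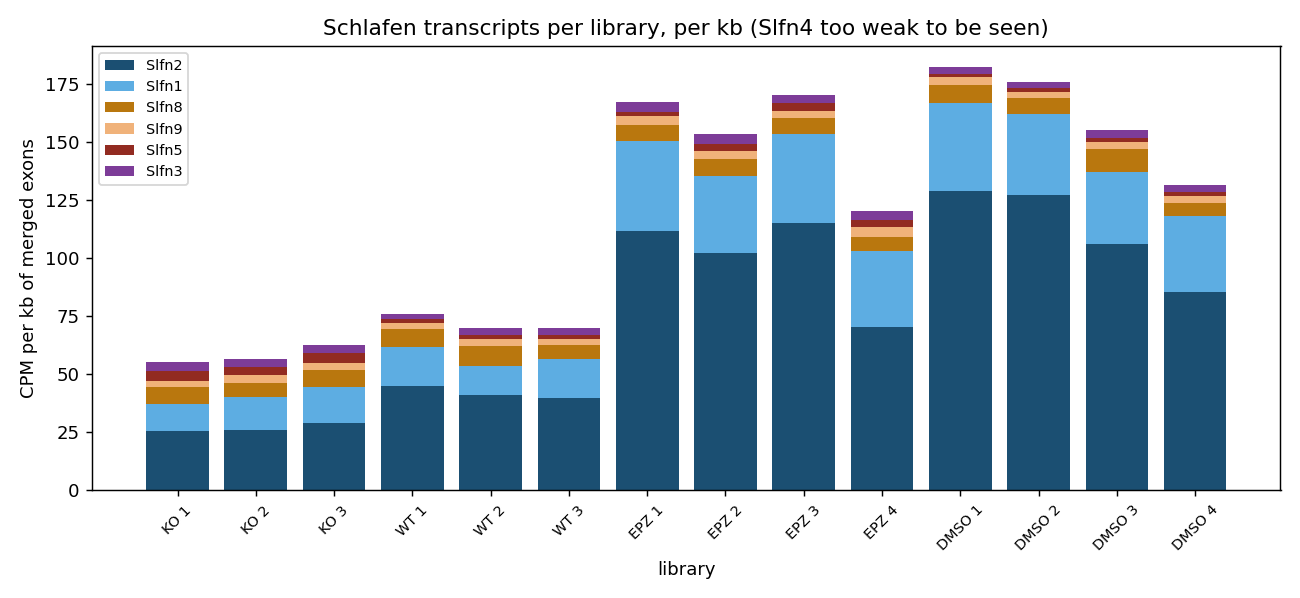
Stacked bars give the CPM per kb of merged exons of 6 Schlafen genes in each of the 14 libraries (horizontal axis). The EPZ and DMSO bars, with sums of 120 to 182 CPM per kb, all stand above the KO-labelled and WT-labelled bars, with sums of 55.1 to 75.7, and Slfn2 is the largest piece of each bar.

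In KO-labelled cells, compared with WT-labelled cells, Slfn5, Slfn3 and Slfn9 rose and Slfn2 fell, whereas Slfn1 and Slfn8 did not pass the test. Slfn5 showed the largest change of the members tested, 2.02-fold, and Slfn2 was at 0.646 of its WT-labelled level. Of the 7 members 6 had enough counts to be tested, and 3 were called higher and 1 lower by edgeR's quasi-likelihood test at a Benjamini-Hochberg adjusted p under 0.05. Over all 11570 genes tested 40.4% were called, 20.3% higher and 20.2% lower, so calls were common in this comparison. The median log2 fold change of the 6 members was 0.09, against -0.0064 over all genes tested.

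Slfn2, the short form linked to T cell quiescence, had 42.5, 43.1 and 48.0 CPM in the KO-labelled libraries and 74.4, 68.4 and 65.7 CPM in the WT-labelled libraries. Each KO-labelled library lay below each WT-labelled one, and the log2 fold change was -0.63 ± 0.08 (SE; edgeR adjusted p = 3.5e-05). In bulk RNA fewer cells that express a gene and less RNA per cell cannot be told apart. Slfn1, which arrests thymocyte growth when expressed in mice, had 21.9, 26.5 and 29.2 CPM in the KO-labelled and 31.6, 23.3 and 31.2 CPM in the WT-labelled libraries. The groups overlapped, with a log2 fold change of -0.16 ± 0.12 (edgeR adjusted p = 0.311) and a 95% interval of -0.42 to 0.10.

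Slfn3, an intermediate form studied in rodent gut epithelium and in activated T cells, had 12.2, 12.2 and 12.7 CPM in the KO-labelled libraries and 6.29, 9.53 and 9.59 CPM in the WT-labelled libraries. The groups did not overlap, and WT 1 was the lowest library. The log2 fold change was 0.53 ± 0.15 (edgeR adjusted p = 0.0145).

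Slfn5, a long form that is found in the nucleus and is induced by interferon, had 27.3, 22.3 and 24.9 CPM in the KO-labelled libraries and 13.4, 12.8 and 11.1 CPM in the WT-labelled libraries. All KO-labelled libraries stood well above all WT-labelled ones, with a log2 fold change of 1.02 ± 0.12 (edgeR adjusted p = 1.9e-05) and a 95% interval of 0.76 to 1.27. Slfn9 had 17.8, 20.1 and 18.1 CPM in the KO-labelled and 14.5, 17.2 and 14.95 CPM in the WT-labelled libraries, which did not overlap by a narrow margin. Its log2 fold change was 0.31 ± 0.11 (edgeR adjusted p = 0.0393), and the call was lost in 10 of 13 other settings. Among them were DESeq2 (adjusted p = 0.120) and leaving out KO 1, KO 2, KO 3, WT 1 or WT 3 (edgeR adjusted p of 0.0514 to 0.190). The call was also lost in edgeR with no filter on low counts (adjusted p = 0.0515), with the replicate number as a block (0.0753) and with all 14 libraries in the fit (0.0605). Slfn8, the close neighbour of Slfn9, had 28.4, 24.3 and 30.0 CPM in the KO-labelled and 31.5, 34.8 and 25.8 CPM in the WT-labelled libraries. The groups overlapped (log2 fold change -0.13 ± 0.12, edgeR adjusted p = 0.442).

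With KO 1 and WT 1 alone, the log2 fold change of Slfn5 was 1.02 (edgeR adjusted p = 0.0945), that of Slfn3 0.95 (adjusted p = 0.0926), that of Slfn2 -0.81 (adjusted p = 0.197) and that of Slfn9 0.29 (adjusted p = 0.484). The directions were those of the full comparison, but 0 members were called. In that fit 479 genes of the whole table were called higher and 435 lower.

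**Figure D2:**
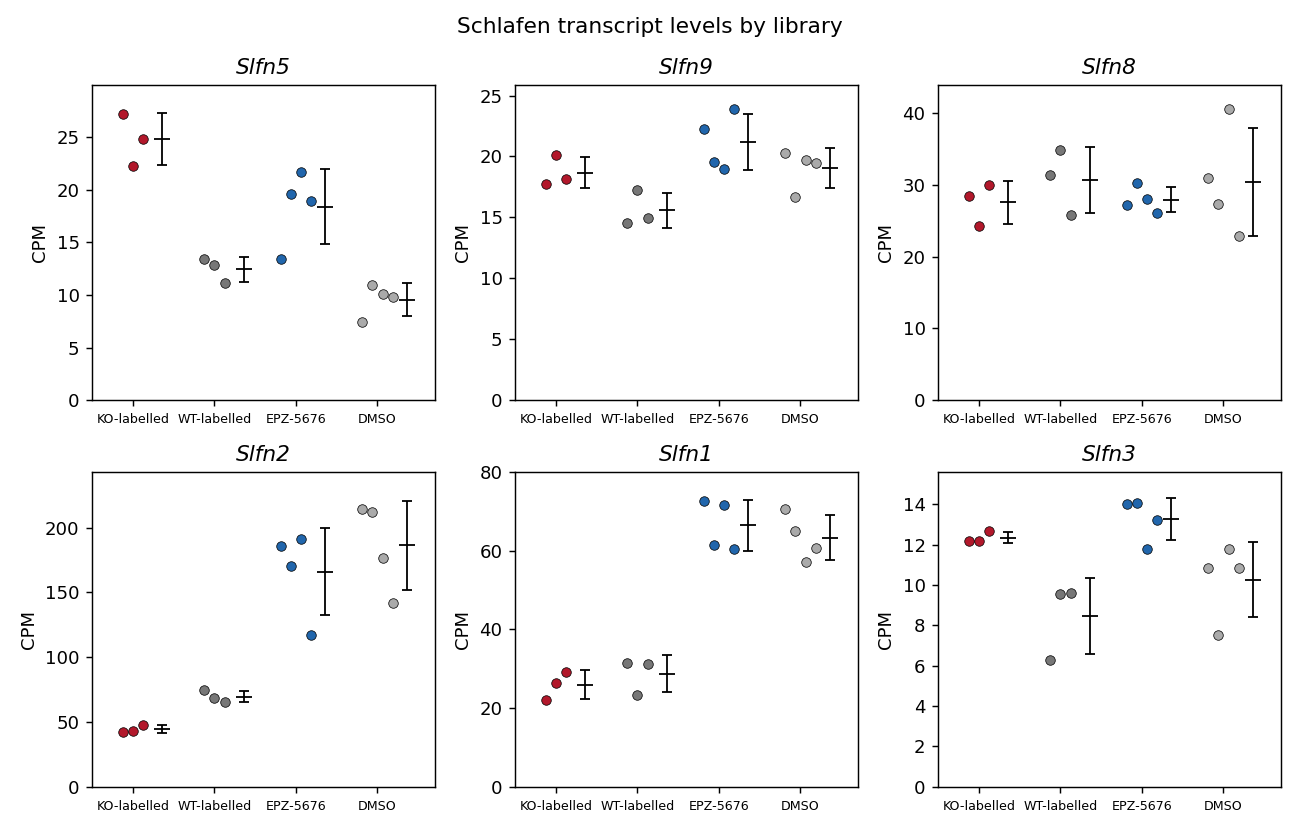
Each point is the level in CPM (vertical axis) of 1 library in the KO-labelled, WT-labelled, EPZ and DMSO groups, and the bar beside it is the mean ± SD of the group (n = 3, 3, 4 and 4). Slfn5 is higher in KO-labelled than in WT-labelled and in EPZ than in DMSO libraries with no overlap, while Slfn2 and Slfn1 separate the first pair of groups from the second.

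Under the inhibitor Slfn5 rose and no other member passed the test. EPZ cells held 1.96 times the Slfn5 of DMSO cells. Of the 6 members tested, 1 was called higher and 0 lower, and over all 12208 genes tested 20.2% were called, 11.9% higher and 8.31% lower. The median log2 fold change of the 6 members was 0.11, against -0.0075 over all genes tested.

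Slfn5 had 13.4, 19.6, 21.7 and 18.9 CPM in the EPZ libraries of animals WT1 to WT4 and 7.38, 11.0, 10.1 and 9.81 CPM in their DMSO libraries. EPZ exceeded DMSO in 4 of 4 animals, by 0.84 to 1.11 on the log2 scale within an animal, and the lowest EPZ library came from the animal with the lowest DMSO library. The log2 fold change was 0.97 ± 0.16 (edgeR adjusted p = 0.0022), and with the animal as a block it was 0.93 (adjusted p = 0.00035).

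Slfn3 had 14.0, 14.0, 11.8 and 13.2 CPM in EPZ and 10.8, 7.54, 11.8 and 10.8 CPM in DMSO libraries of the same animals. The ranges only just failed to overlap, and EPZ exceeded DMSO in 4 of 4 animals. In animal WT3 the pair differed by 0.0013 on the log2 scale, against 0.90 in animal WT2. The log2 fold change of 0.38 ± 0.13 missed the threshold (edgeR adjusted p = 0.0623). It passed with DESeq2 (adjusted p = 0.0491), with all 14 libraries in the fit (adjusted p = 0.0467) and without EPZ 3 (adjusted p = 0.0484), and missed it with the animal as a block (adjusted p = 0.0669).

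Slfn2 had 186, 170, 191 and 117 CPM in EPZ and 215, 212, 177 and 142 CPM in DMSO libraries. The groups overlapped, and EPZ was the higher library in 1 of 4 animals. The log2 fold change was -0.16 ± 0.16 (edgeR adjusted p = 0.507, 95% interval -0.51 to 0.18). With the animal as a block it was -0.17 ± 0.08 (edgeR adjusted p = 0.138). Slfn1 had 72.6, 61.4, 71.6 and 60.3 CPM in EPZ and 70.5, 65.0, 57.0 and 60.7 CPM in DMSO libraries, also overlapping (log2 fold change 0.07 ± 0.09, adjusted p = 0.607). Slfn8 averaged 27.9 ± 1.76 CPM in EPZ and 30.4 ± 7.52 CPM in DMSO cells (SD over 4 libraries each). Its log2 fold change was -0.11 ± 0.14 (edgeR adjusted p = 0.629). DMSO 3, at 40.6 CPM, was its highest library, and without it the log2 fold change was 0.03. Slfn9 averaged 21.2 ± 2.32 CPM in EPZ and 19.0 ± 1.63 CPM in DMSO cells, with a log2 fold change of 0.15 ± 0.10 (edgeR adjusted p = 0.305).

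**Figure D3:**
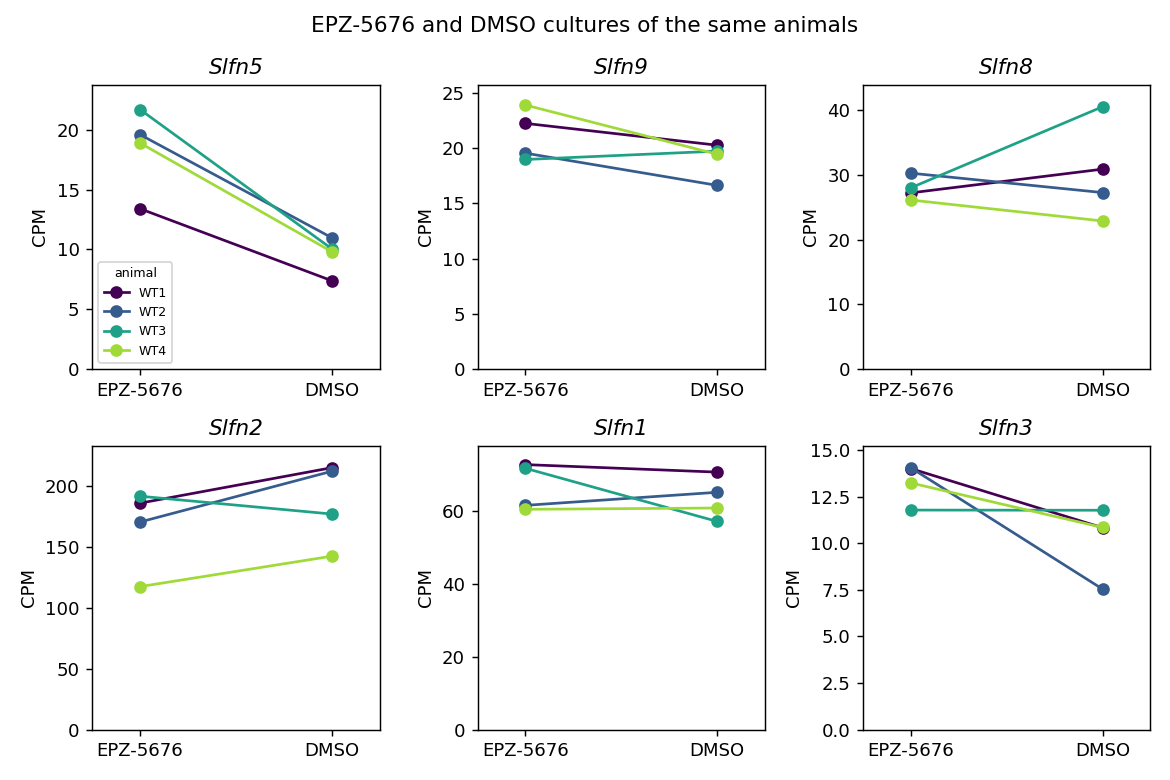
Lines join the level in CPM (vertical axis) of the EPZ culture and the DMSO culture of the same animal (WT1 to WT4). The 4 Slfn5 lines and the 4 Slfn3 lines all run from a higher EPZ to a lower DMSO value, with the Slfn3 line of WT3 almost flat. The lines of Slfn9, Slfn8, Slfn2 and Slfn1 run in both directions, and for Slfn9 EPZ is higher in 3 of 4 animals.

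Slfn5 was thus called higher in both comparisons. For Slfn5, the contrast of the effects, (KO-labelled minus WT-labelled) minus (EPZ minus DMSO), was 0.04 ± 0.23 on the log2 scale (edgeR adjusted p = 0.959; 95% interval -0.45 to 0.52), so a difference of either sign within that interval remains possible. None of the 6 members tested was called in this contrast by edgeR, 1 of them (Slfn2) had an unadjusted p under 0.05 (0.0455), and 7.6% of all 12639 genes tested were called, 3.29% higher and 4.31% lower. Slfn2 had the largest contrast, -0.48 ± 0.22 (edgeR adjusted p = 0.214), with log2 fold changes of -0.63 in KO-labelled over WT-labelled and -0.16 in EPZ over DMSO cells. With the animal as a block the Slfn2 contrast was -0.47 and passed the test (adjusted p = 0.0177), as it did with no filter on low counts (adjusted p = 0.0087) and without EPZ 4 (-0.59, adjusted p = 0.0464). The contrasts of Slfn1 (-0.23), Slfn3 (0.15), Slfn8 (-0.03) and Slfn9 (0.14) had edgeR adjusted p values of 0.438 to 0.960.

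The 2 control groups were set against each other to place the levels, and the short forms Slfn2 and Slfn1 were lower in WT-labelled than in DMSO cells. WT-labelled over DMSO, Slfn2 (69.5 ± 4.44 and 186 ± 34.1 CPM) had a log2 fold change of -1.43 ± 0.16 (edgeR adjusted p = 2.2e-06). Slfn1 (28.7 ± 4.70 and 63.3 ± 5.81 CPM) had one of -1.12 ± 0.12 (adjusted p = 1.2e-06). These are neighbours in the cluster, and so is the pseudogene Slfn10-ps (9.66 ± 1.43 and 17.8 ± 1.33 CPM), at -0.92 ± 0.15 (adjusted p = 7.3e-05). For these 3 genes no WT-labelled library reached the lowest DMSO library. For Slfn5, in the other direction, each WT-labelled library lay above the highest DMSO library. The share of all genes with separate ranges is not given here. The groups differ by Cre, by 4-hydroxytamoxifen, by DMSO and by experiment, which cannot be told apart.

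Of the 6 members tested in this comparison 3 were called lower and 0 higher, and 50.5% of all genes were called, 24.8% lower and 25.7% higher. The third was Slfn9, with a log2 fold change of -0.31 ± 0.11 (edgeR adjusted p = 0.0243), with overlapping ranges, and its call was lost without DMSO 1 (adjusted p = 0.0529), WT 1 (0.0896) or WT 3 (0.103), and with the libraries whose sex matches the label (0.111). Slfn5 stood at 12.5 ± 1.19 CPM in WT-labelled and 9.56 ± 1.54 CPM in DMSO cells (log2 fold change 0.38 ± 0.17, edgeR adjusted p = 0.0771), and passed with the animal as a block (0.36, adjusted p = 0.0133) and with no filter (0.37, adjusted p = 0.0285). Slfn3 (-0.25 ± 0.16, edgeR adjusted p = 0.197) passed without DMSO 2 (-0.39, adjusted p = 0.0273). Slfn8 was at 30.7 and 30.4 CPM, with a log2 fold change of -0.0033 ± 0.15 (edgeR adjusted p = 0.989).

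The order of the groups thus differed between members. Slfn5 ran from KO-labelled through EPZ and WT-labelled to DMSO cells, and EPZ and WT-labelled, its middle pair, overlapped. Slfn2 and Slfn1 were highest in the EPZ and DMSO groups, which overlapped each other and lay above both remaining groups. Slfn3 had EPZ and KO-labelled cells on top, overlapping, and DMSO and WT-labelled cells below, overlapping each other. In Slfn8 neighbouring groups in the order all overlapped, and in Slfn9 only KO-labelled and WT-labelled cells, the lowest pair, did not.

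**Figure D4:**
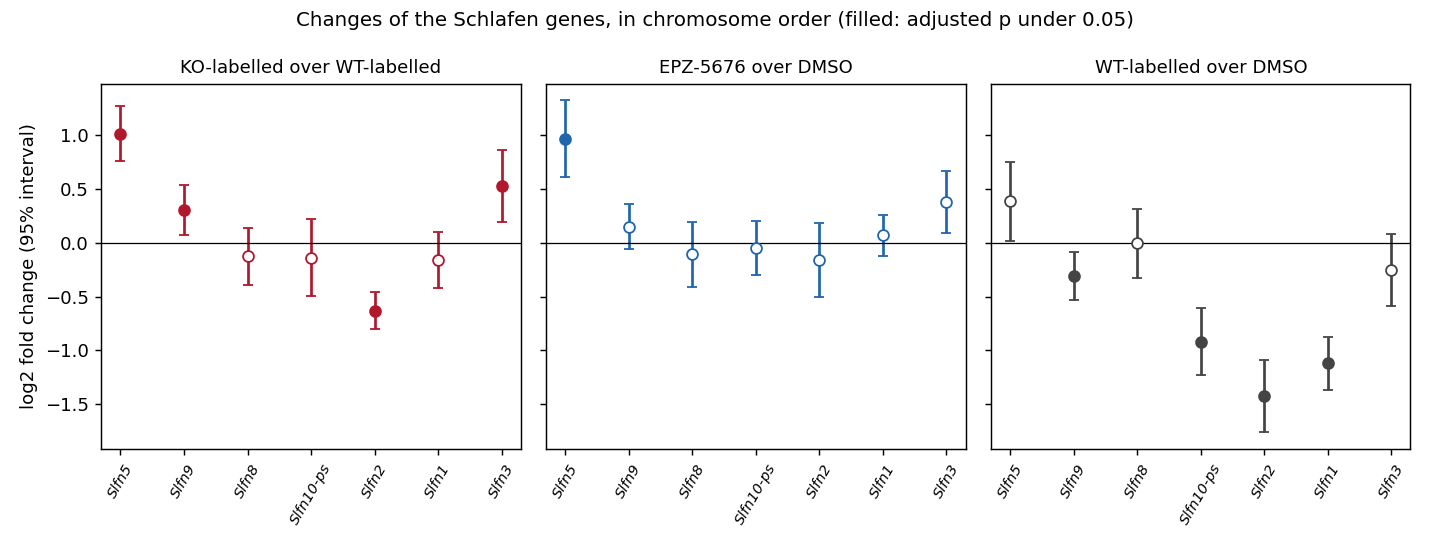
Points give the log2 fold change (vertical axis) of 6 Schlafen genes and the pseudogene Slfn10-ps, in chromosome order, with 95% intervals, for KO-labelled over WT-labelled, EPZ over DMSO and WT-labelled over DMSO. Slfn5 lies near 1 in the first and second panels, and Slfn10-ps, Slfn2 and Slfn1 lie between -0.92 and -1.43 in the third.

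Slfn4, an intermediate form known from interferon-treated and activated mouse macrophages, had 2 counts in all KO-labelled libraries together and 2 in all WT-labelled libraries together, under the floor of 3 counts used here, so no fold is given. It had 2, 2, 3 and 1 counts in the EPZ libraries and 1, 1, 0 and 1 in the DMSO libraries. The ratio of the pooled rates, EPZ over DMSO, was 2.11, with an exact 95% interval of 0.507 to 12.4 that covers counting error only, and a difference was not detectable at this depth. Outside the 7 members, Slfn14 had 4 counts in KO-labelled, 2 in WT-labelled, 1 in EPZ and 0 in DMSO libraries. Slfnl1, on chromosome 4, had 0, 0, 3 and 1 counts in the same groups. The antisense gene Slfn5os, which overlaps Slfn5, had 0 counts in all 14 libraries, which allows up to 0.0159 CPM over their summed total.

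The close copies in the cluster limit how far single members can be told apart. Of the words of 50 bases in their annotated transcripts, Slfn8 shared 14.6%, Slfn9 11.9% and Slfn10-ps 19.7%, mostly with one another. Slfn3 shared 16.0%, mainly with Slfn4 and the predicted gene Gm11427, and Slfn4 shared 11.3%. Slfn5 shared 11.1%, mainly with the antisense gene Slfn5os. Slfn2 shared 4.27% and Slfn1 0.606%, so the counts of the short forms leaned least on shared sequence. The sources used here do not say how reads that match several genes were counted, and the values of Slfn3, Slfn4, Slfn5, Slfn8, Slfn9 and Slfn10-ps are uncertain to that extent. The strand setting of the counting is also unknown, so reads of Slfn5 and of Slfn5os on the opposite strand cannot be told apart. Slfn10-ps itself did not pass the test in KO-labelled over WT-labelled cells (log2 fold change -0.14, edgeR adjusted p = 0.533) or in EPZ over DMSO cells (-0.05, adjusted p = 0.814).

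The genes around the cluster were looked at within 500 kb of either end. In KO-labelled over WT-labelled cells 18 of them were tested, 3 were called higher and 2 lower, beside the 20.3% and 20.2% over all genes. The chemokine genes Ccl3 (log2 fold change 1.31) and Ccl5 (0.59) and the ribosome assembly gene Nle1 (0.34) rose, and Rffl (-0.60), which encodes a ubiquitin ligase, and the long RNA AA465934 (-0.82) fell. In EPZ over DMSO cells 1 of 19 was called (5.26%, beside 20.2% over all genes), Ccl5 at 0.61 (edgeR adjusted p = 0.0106). Slfn5 and its neighbour Ccl5 were thus called higher in both comparisons. Nle1, whose start lies 50.6 kb from that of Slfn5, was called in the first only. It had a log2 fold change of 0.18 in the second (edgeR adjusted p = 0.243). Its contrast of the effects was 0.15 (edgeR adjusted p = 0.604), so no difference between its changes was called. In WT-labelled over DMSO cells 5 of 19 neighbours were called higher and 5 lower, a share of 52.6% beside 50.5% over all genes. In the contrast of the effects 1 of 19 (Ccl3) was called, higher, beside 7.6% over all genes.

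**Figure D5:**
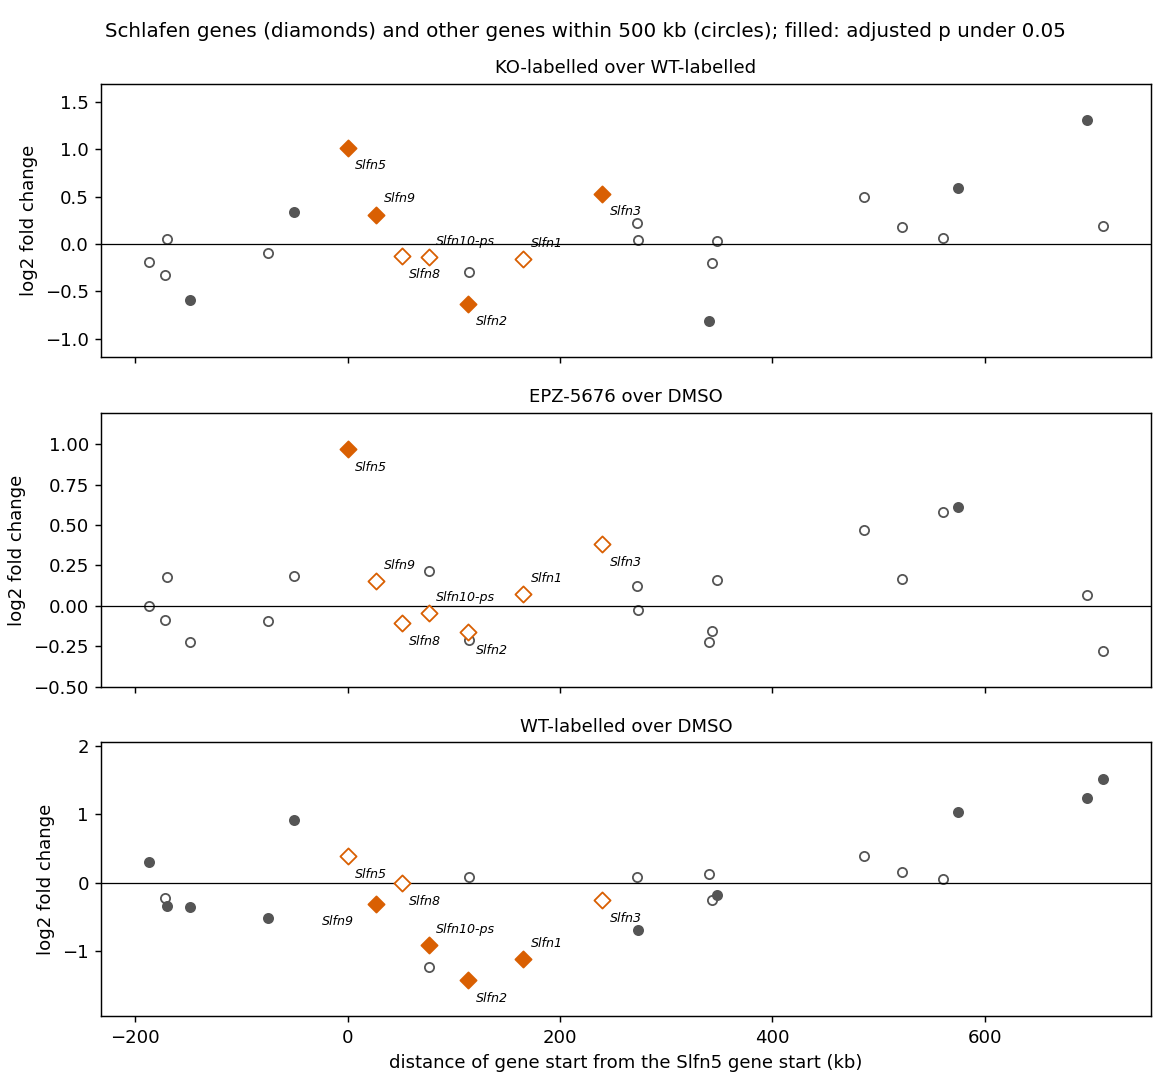
The log2 fold change (vertical axis) is drawn against the distance of each gene start from that of Slfn5 in kb (horizontal axis), for Schlafen genes as diamonds and other tested genes within 500 kb as circles, with calls filled. Slfn5 is the highest diamond in the first and second panels, and filled diamonds in the third panel lie below 0, with Slfn2 the lowest at -1.43.

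Gene lists of the pathways that Schlafen genes belong to were read beside them. The background over all genes tested was 20.3% higher and 20.2% lower in KO-labelled over WT-labelled cells, with a median log2 fold change of -0.0064, and 11.9% higher and 8.31% lower in EPZ over DMSO cells, with a median of -0.0075. Of 23 interferon receptors and signal transducers tested, 5 were called higher and 3 lower in KO-labelled over WT-labelled cells (median log2 fold change -0.03), and 2 higher and 4 lower in EPZ over DMSO cells (median -0.07). The shares called, 34.8% in the first comparison and 26.1% in the second, were near the 40.4% and 20.2% over all genes. Ifngr2, a subunit of the interferon gamma receptor, averaged 1.43 ± 0.459 CPM in KO-labelled and 12.4 ± 0.189 CPM in WT-labelled cells (log2 fold change -2.99, edgeR adjusted p = 1.2e-07). Ifnar2, a subunit of the type I interferon receptor, fell by 0.79 on the log2 scale in the same comparison (adjusted p = 1.5e-06). In EPZ over DMSO cells Irf2, an interferon regulatory factor, had a log2 fold change of -0.24 (adjusted p = 0.0121) and Socs3, a feedback inhibitor of cytokine signalling, fell by 0.41 (adjusted p = 0.0127).

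Among the interferon-stimulated genes, 17 of 48 tested were called higher and 13 lower in KO-labelled over WT-labelled cells (median log2 fold change 0.14), and 12 of 49 higher and 5 lower in EPZ over DMSO cells (median 0.10). The shares called were 62.5% and 34.7%, beside 40.4% and 20.2% over all genes. Oasl2, an antiviral gene of the oligoadenylate synthetase family, rose by 2.60 on the log2 scale in KO-labelled cells (7.15 ± 0.370 CPM in KO-labelled and 1.05 ± 0.362 CPM in WT-labelled cells, edgeR adjusted p = 1.4e-06). Samhd1, a nucleotide phosphohydrolase, fell by 0.82 on the log2 scale (adjusted p = 1.8e-07). In EPZ cells Ifi204, a DNA sensor gene, had a log2 fold change of 2.09 (adjusted p = 0.0019) and Parp12, an ADP-ribosyltransferase, rose by 0.60 (adjusted p = 0.0020). Slfn5, not a member of this list, was called higher in both comparisons.

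Of 32 genes linked to T cell quiescence and the resting state, 24 were called lower and 3 higher in KO-labelled over WT-labelled cells, with a median log2 fold change of -0.74. In EPZ over DMSO cells 12 were called lower and 1 higher, with a median of -0.29. The shares called lower or higher were 84.4% and 40.6%, beside 40.4% and 20.2% over all genes, whose medians were -0.0064 and -0.0075. Ccr7, a homing receptor of resting T cells, averaged 14.0 ± 0.8285 CPM in KO-labelled and 79.6 ± 3.19 CPM in WT-labelled cells (log2 fold change -2.47, edgeR adjusted p = 6.4e-10), and Satb1, a chromatin organiser of T cells, fell by 1.51 on the log2 scale (adjusted p = 4.9e-09). In EPZ cells Lef1, a transcription factor of naive T cells, fell by 0.63 on the log2 scale (adjusted p = 0.0020), while Klf4, a factor that restrains T cell division in mice, rose by 1.91 (adjusted p = 0.0026). Slfn2, known for the same role but not a member of this list, was called lower in KO-labelled cells. It was not called in EPZ over DMSO cells (log2 fold change -0.16, edgeR adjusted p = 0.507), and Slfn1 was called in neither comparison.

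Of 5 genes of tRNA cleavage and protection tested, 3 were called higher and 1 lower in KO-labelled over WT-labelled cells (median log2 fold change 0.21), and 1 higher and 1 lower in EPZ over DMSO cells (median 0.11), beside 40.4% and 20.2% of all genes called in the same comparisons. Rnh1, the ribonuclease inhibitor, had a log2 fold change of 0.62 (edgeR adjusted p = 6.3e-06) in KO-labelled cells. In EPZ cells Nsun2, a tRNA methyltransferase, had a log2 fold change of 0.34 (adjusted p = 0.0027). In WT-labelled over DMSO cells the counts higher and lower were 7 and 8 of 23 for the receptors and transducers, 9 and 12 of 51 for the interferon-stimulated genes, 4 and 22 of 32 for the quiescence genes, and 3 and 1 of 5 for the tRNA genes. Over all genes 25.7% were higher and 24.8% lower there, and the interferon-stimulated genes, with 41.2% called, lay below the 50.5% called over all genes. In the contrast of the effects the counts were 2 and 2, 4 and 3, 1 and 11, and 1 and 0 in the same order, beside 3.29% higher and 4.31% lower over all genes.

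The genes whose levels ran most like each member were ranked by Pearson's r of log2(CPM + 1) over the 14 libraries. These fall into 4 groups, so r can reflect differences between group means, and r within groups is given beside it. Slfn2 ran closest to Zfp874a, Ube2h and Il16 (each r = 0.99, and 0.81 to 0.87 after the group means were removed). Slfn1 ran closest to Sacm1l, Zfp60 and Mlh3 (each r = 0.98, and 0.68 to 0.83 within groups). For the intermediate form Slfn3 the nearest were Gnb4, Nek4 and Tspoap1 (r of 0.89 to 0.92, and 0.77 to 0.84 within groups). Slfn5 ran closest to Dipk1b (r = 0.96), Ston2 (0.94) and Cntln (0.93), and within groups these fell to 0.78, 0.46 and 0.23. The nearest to Slfn8 were Auh, Fbxl5 and Eml5 (r of 0.85 to 0.86, and 0.84 to 0.90 within groups). Those to Slfn9 were Iars, Dctd and Ctr9 (r of 0.89 to 0.92, and 0.73 to 0.77 within groups). Between members, Slfn1 and Slfn2 had r = 0.95 (0.52 within groups), and Slfn3 and Slfn9 had r = 0.79 (0.60 within groups).

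Markers of other cell types moved with the groups, and their part in the results was not tested. The 8 CD8 T cell markers were all detected, and summed to 2168 to 2201 CPM in KO-labelled, 3559 to 3884 in WT-labelled, 2884 to 3203 in EPZ and 4045 to 4436 in DMSO libraries, so this sum was lower in both groups in which Slfn5 was higher. Its members differed. Cd8a averaged 115 CPM in KO-labelled and 706 in WT-labelled cells and Cd8b1 114 and 574. Cd3d (288 and 475), Trac (98.6 and 270), Trbc1 (234 and 288) and Trbc2 (317 and 428) were also lower in KO-labelled cells. Cd3e averaged 582 in KO-labelled and 523 in WT-labelled cells and Cd3g 439 and 442. In EPZ cells Cd8a averaged 399 CPM, against 834 in DMSO cells, and Cd8b1 255 and 566. The means of all 8 were lower in EPZ than in DMSO cells. The 7 B cell markers summed to 120 to 141 CPM in KO-labelled, 482 to 588 in WT-labelled, 421 to 551 in EPZ and 1032 to 1284 in DMSO libraries. Nearly all of this was the immunoglobulin gene Ighm, and the defining marker Ms4a1 was at 0 in all libraries. The 10 myeloid and dendritic markers summed to 89.0 to 128 CPM in KO-labelled, 17.4 to 21.1 in WT-labelled, 13.2 to 15.7 in EPZ and 8.69 to 14.3 in DMSO libraries, with S100a8 and S100a9 at 0 in all. In KO-labelled cells the leading gene of that list was Fcer1g (61.5 CPM). Without Fcer1g the list summed to a mean of 44.6 CPM in KO-labelled and 15.3 in WT-labelled cells. That remainder was 10.7 CPM in both EPZ and DMSO cells. Itgax averaged 32.3 CPM in KO-labelled and 8.03 in WT-labelled cells, while Cd68 averaged 6.25 and 6.41.

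The 5 NK cell markers summed to 355 to 404 CPM in KO-labelled, 230 to 313 in WT-labelled, 224 to 278 in EPZ and 126 to 170 in DMSO libraries, led by Eomes, which CD8 T cells also express. The other markers of that list summed to a mean of 80.9 CPM in KO-labelled and 19.2 in WT-labelled cells, and of 30.7 in EPZ and 6.95 in DMSO cells, higher in both groups in which Slfn5 was higher. Klrb1c, most of that remainder in each group, averaged 74.5 CPM in KO-labelled and 15.7 in WT-labelled cells, and 27.5 in EPZ and 4.38 in DMSO cells. Klri2 went the other way in the first pair, with 1.90 CPM in KO-labelled and 3.48 in WT-labelled cells. It averaged 2.78 CPM in EPZ and 2.56 in DMSO cells. Klra8 had 1 count in DMSO libraries and 0 in the other groups. Ncr1 had 164 counts in KO-labelled and 0 in WT-labelled libraries, and 26 in EPZ and 0 in DMSO libraries. The 5 gamma delta T cell markers summed to 113 to 121, 211 to 265, 248 to 278 and 241 to 260 CPM in the same order of groups. Trdc led them, and the others summed to means of 17.2, 64.1, 28.3 and 37.7 CPM, highest in WT-labelled cells. The 4 markers of CD4 and regulatory T cells summed to 34.2 to 38.1, 25.2 to 30.8, 26.8 to 29.7 and 29.9 to 35.7 CPM. Zbtb7b led these, and the others went another way. Their summed means were 1.83, 6.90, 6.98 and 16.5 CPM, lowest in KO-labelled and highest in DMSO cells. The 5 erythroid and platelet markers summed to at most 4.41 CPM in any library.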

How the data were processed

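RNA was counted in 14 libraries of mouse CD8 T cells. The deposited table holds raw counts of reads for each Ensembl gene, not normalized by the authors. TopHat2 2.1, Bowtie 1.1, HTSeq and the mm10 build are named in the submitters' processing notes. The sources used here name neither the strand setting nor the annotation release. Gene lengths and 50-base words come from GENCODE mouse release M21, with which 98.9% of genes share coordinates. A line without a gene name held 0 counts. No pair of replicates was a copy (their chi-square was 2.05 to 18.1 per degree of freedom). The labels call the libraries biological replicates.

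The tests used edgeR 4.0.16 under R 4.3.3 (TMM, filterByExpr with a minimum count of 10 and total of 15, quasi-likelihood F-test), with Benjamini-Hochberg adjustment over all genes tested and a threshold of 0.05. KO-labelled over WT-labelled and EPZ over DMSO were fitted on their own libraries, and the contrast of effects and WT-labelled over DMSO on all 14. A standard error is the fold change over the root of F. CPM uses TMM factors over all 14 libraries. The alternatives were other normalizations and filters, DESeq2 1.42.0, each library left out, blocks, all libraries in 1 fit, and the libraries whose sex matches the label. The scripts were tested on simulated data. Library names give the same animals in EPZ and DMSO. After removal of the group means, same-animal libraries correlated at 0.62, 0.04, -0.06 and 0.52.

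Named genes were all 7 members, other Slfn symbols, the 3 genes most like each tested member (mean of at least 5 CPM, no predicted genes or receptor segments), called neighbours, and from each list (interferon receptors and transducers, interferon-stimulated genes, quiescence genes, tRNA genes) the 2 with the smallest adjusted p in KO-labelled over WT-labelled and the 2 in EPZ over DMSO. An item that this rule names is not reported here, so a list can have fewer named genes. The members and lists were chosen with earlier results of these data known.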

Additional observations from a re-analysis of the deposited data

How the results depend on the processing

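The members' log2 fold changes were recomputed in 360 combinations of member, comparison and setting. Of these, 315 kept their direction and their side of the threshold, 17 lost a call, 9 gained one and 19 changed sign, all 19 among values that were not called. The cause of these changes was not tested, and the calls lost or gained are named in the report. With libraries left out in turn, 2 to 3 members were called higher and 1 lower in KO-labelled over WT-labelled, 1 to 2 higher in EPZ over DMSO, 0 to 1 lower in the contrast of effects and 2 to 4 lower in WT-labelled over DMSO. With only the libraries whose sex matches the label, 0 members were called higher and 0 lower in KO-labelled over WT-labelled, and all genes called higher and lower numbered 479 and 435 there, 27 and 41 in the contrast of effects and 2156 and 1980 in WT-labelled over DMSO; this fit has 1 library in each of those groups. In EPZ over DMSO 2 members were called higher with DESeq2 and with all 14 libraries, and 860 genes with a filter of 10 CPM. With no filter, and with the animal as a replicate block, 1 member was called lower in the contrast of effects and 1 higher in WT-labelled over DMSO. All genes called with libraries left out ranged from 979 to 1327 higher and 610 to 1060 lower in EPZ over DMSO (610 without EPZ 4), and from 265 to 479 higher (265 without KO 3) and 302 to 627 lower (302 without KO 2, 362 without KO 3) in the contrast of effects.

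Sign changes touched 5 uncalled values. Slfn8 in WT-labelled over DMSO was at 0.0017 with DESeq2, 0.0012 with the animal block and 0.0601 with the sex-matching libraries, and ranged from -0.13 to 0.14 with libraries left out in turn. Slfn8 in the contrast of effects was at 0.00034 with DESeq2's size factors and 0.0125 with the 10 CPM filter, and ranged from -0.18 to 0.11 with libraries left out. With libraries left out, Slfn8 in EPZ over DMSO ranged from -0.23 to 0.0335, Slfn5 in the contrast from -0.0678 to 0.20, and Slfn3 in the contrast from -0.0146 to 0.30.

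The replicate numbers of the KO-labelled and WT-labelled libraries name different animals. As a replicate block they left 2 members higher and 1 lower, with 2128 and 2138 genes called, and 0 of 6 libraries correlated best with its own number. In EPZ over DMSO the animal block left 1 member higher, with 1792 and 1371 genes called, and changed no member's call.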
